A study of Mus musculus with 4 samples.

Results

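The genes described here were 10 mouse genes that mark mast cells and basophils. They were taken by symbol from a lung RNA-seq table of 41079 genes. They are the IgE receptor chains Fcer1a, Ms4a2 and Fcer1g, the mast cell granule proteases Cpa3, Cma1, Mcpt4, Tpsb2 and Tpsab1, the basophil protease Mcpt8, and the stem cell factor receptor Kit. Lung RNA was sequenced from mice with an intact Rab44 gene (WT) and from Rab44-KO mice, in which it is knocked out, in a study of what loss of the GTPase Rab44 does to allergic airway inflammation. There were 4 libraries, 1 for each genotype and state, normal or OVA-induced, called WT normal, KO normal, WT OVA and KO OVA here, and values that follow each other are in that order. All mice were female littermates on a C57BL/6 background, aged 8 to 14 weeks, and the Rab44-KO mice carried a Rab44 gene edited by CRISPR/Cas9. OVA-induced mice of either genotype were sensitized with 100 μg ovalbumin (OVA) and alum in the peritoneum on days 0, 7 and 14. They were then given 100 μg OVA in 50 μL through the nose on days 17 to 20, and lungs were taken on day 21 by the methods, or 21 days after OVA treatment by the labels. Normal mice are labelled as untreated, although the protocol attached to them also mentions PBS, and how many mice went into a library was not given in the sources used here.

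Mast cells and basophils carry the high-affinity IgE receptor (FcεRI) on their surface. Allergen that crosslinks IgE on this receptor makes them release granules with histamine and proteases, and then lipid mediators and cytokines. Mast cells mature in tissues under stem cell factor, the ligand of Kit, and store proteases that differ between mucosal and connective tissue mast cells. Basophils circulate in blood, lack most of these proteases and enter tissues during type 2 inflammation. In the mouse lung, mast cells are few and lie mainly around large airways and in the pleura.

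Library totals were 18112901 to 19910236 counts, and 24316 to 25003 genes had a count. Rab44, the edited gene, had 251 counts in WT normal, 1 in KO normal, 810 in WT OVA and 0 in KO OVA, which is as the labels have it. With 1 library per group there are no replicates, and each ratio below is between libraries. A log2 fold change (log2FC) was taken between CPM, the counts divided by library size, scaled by TMM so that most genes are level between libraries, and ranges are exact 95% intervals of the count or count ratio. Intervals and floors cover counting error only, and reads copied by PCR are not independent molecules. A gene was read as over 2-fold when its absolute log2FC passed 1 and its higher library had at least 10 counts. The WT OVA library stood apart from the other 3 in heart muscle genes, 6 of which summed to 212 CPM, against 572 to 631 CPM in the others. All 7 housekeeping genes measured were lower in KO OVA than in WT OVA lungs, with a median log2FC of -0.75. Read as TPM, which is per length, the median of all genes moved by 0.33 in that comparison and by -0.17 in WT and 0.12 in Rab44-KO in OVA-induced over normal lungs. The part of these shifts in the results below was not tested.

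Kit and Fcer1g were far above the other members and took 95.02% to 98.1% of the members' counts in each library. Per length, Kit stood at 103 TPM in WT normal, 128 in KO normal, 64.4 in WT OVA and 118 in KO OVA. Fcer1g stood at 87.3, 90.7, 231 and 118 TPM in the same order. Cpa3 followed in 3 of the 4 libraries, at 4.93 TPM in WT normal and 9.40 TPM in WT OVA lungs, and in KO normal lungs Mcpt4 was above it, at 3.35 against 3.14 TPM. The other 7 members were at most 3.98 TPM in any library. Kit is also expressed by lung capillary endothelium and blood progenitors, and Fcer1g by macrophages, neutrophils, eosinophils and NK cells. The counts of these genes in whole lung therefore do not mark mast cells or basophils alone. In whole lung, fewer cells of a type and less RNA per cell cannot be told apart.

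Fcer1a encodes the chain that binds IgE and defines FcεRI. It had 12 counts in WT normal, 1 in KO normal, 14 in WT OVA and 5 in KO OVA. Both Rab44-KO libraries were below both WT libraries, although the interval at KO OVA, 0.0833 to 0.598 CPM, overlapped those of WT normal (0.323 to 1.09 CPM) and WT OVA. Ms4a2, the β chain that amplifies the receptor's signal, had 23, 9, 39 and 24 counts in the same order, which is 1.20, 0.493, 2.01 and 1.23 CPM. KO normal was the lowest library and WT OVA the highest, while WT normal and KO OVA were nearly level. Fcer1g, the γ chain that FcεRI shares with several other Fc and lectin receptors, had 464, 450, 1398 and 571 counts. WT OVA stood alone, at 72.2 CPM (68.4 to 76.1), and the other 3 libraries lay between 24.2 and 29.3 CPM.

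The signalling part of the receptor lies in Ms4a2 and Fcer1g. Each holds an immunoreceptor tyrosine-based activation motif (ITAM), in which tyrosines are phosphorylated by Lyn. A search of the longest coding sequence with a CCDS tag in GENCODE M21 (for Tpsab1, which has no such tag, the longest) looked for a tyrosine, 2 residues and a leucine or isoleucine, then 6 to 8 residues and the same pattern again, and found it in these 2 alone. They are shown because both chains match this search pattern yet differed in level and in pattern across the libraries. Both are given on the coding strand, with the codons of the 2 motif tyrosines in capitals, and cover codons 210 to 223 of Ms4a2 and 65 to 79 of Fcer1g, counted from the start codon.
Ms4a2: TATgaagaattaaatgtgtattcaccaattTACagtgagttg
Fcer1g: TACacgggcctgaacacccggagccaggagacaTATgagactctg
The stretch has 14 codons in Ms4a2 and 15 in Fcer1g. Fcer1g was 88.6 times as high as Ms4a2 per length in WT normal, 220 times in KO normal, 157 times in WT OVA and 104 times in KO OVA lungs. Against Fcer1a it was 60.6 times as high in WT normal lungs. The γ chain was thus far above Fcer1a and Ms4a2 in every library.

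**Figure D1:**
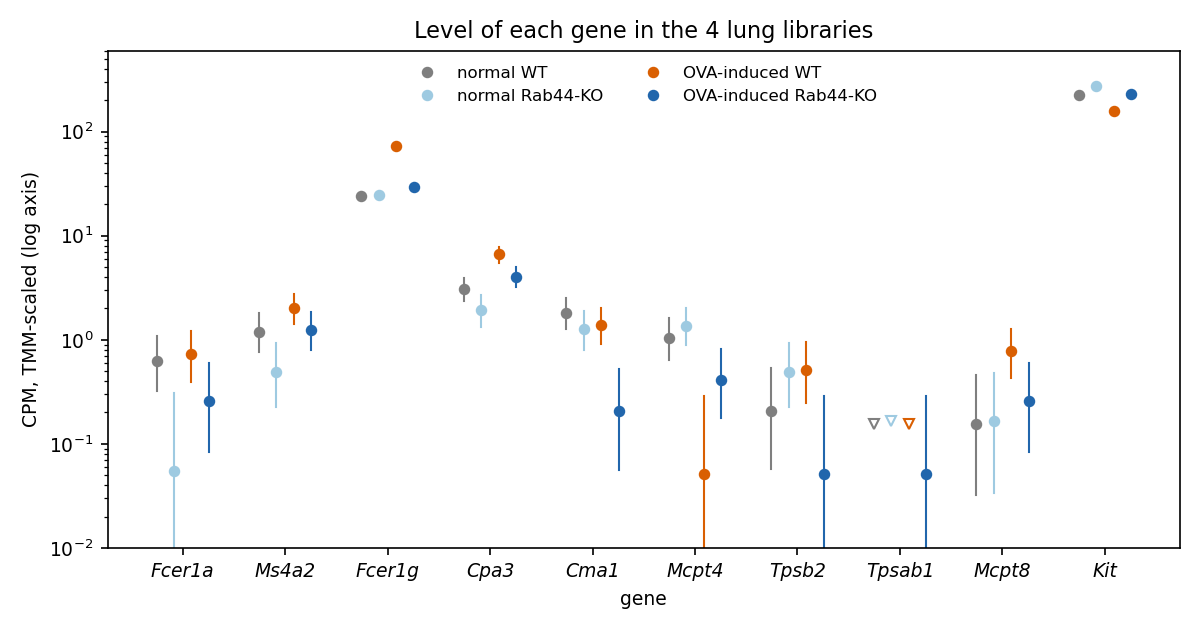
TMM-scaled CPM (log axis) of the 10 genes in the 4 lung libraries, 1 library per group. Points are levels, bars are exact 95% Poisson intervals cut off at the lower edge of the axis, and open triangles are the floor of 3 counts in libraries with a count of 0; Kit and Fcer1g lie far above the rest, Fcer1g is highest in WT OVA at 72.2 CPM, and Mcpt4 is lowest there with 1 count.

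Cpa3, carboxypeptidase A3, is a granule protease of nearly all mast cells and had the most counts of the 5 proteases in each library. It had 59 counts in WT normal, 35 in KO normal, 128 in WT OVA and 79 in KO OVA. Within each condition the Rab44-KO library was lower, and within each genotype the OVA-induced library was higher. Cma1, a chymase-family protease of connective tissue mast cells, had 35, 23, 27 and 4 counts. KO OVA was the low library for Cma1, at 0.205 CPM (0.0559 to 0.525), and its interval did not reach those of the other 3. Mcpt4, the main chymase of connective tissue mast cells in the mouse, had 20, 25, 1 and 8 counts. Both normal libraries were above both OVA-induced libraries, and the interval at WT OVA, up to 0.288 CPM, did not reach those of the normal libraries. Tpsb2, a tryptase stored with heparin, had 4, 9, 10 and 1 counts, and the neighbouring tryptase gene Tpsab1 had 0, 0, 0 and 1. C57BL/6 mice are known to make no working Tpsab1 product, and the RefSeq annotation of GRCm38 lists the gene as a transcribed pseudogene. In the 3 libraries without a count, the exact interval of a 0 reached at most 0.202 CPM. Mcpt8, the protease that marks mouse basophils, had 3 counts in WT normal, 3 in KO normal, 15 in WT OVA and 5 in KO OVA, and WT OVA was the high library. On GRCm38 (GENCODE M21) the chymase-family genes and the tryptase genes lie in clusters, Cma1 at chr14:55941451-55944675, Mcpt4 at chr14:56059629-56062313 and Mcpt8 at chr14:56082166-56085273, with Tpsab1 at chr17:25343245-25345562 and Tpsb2 at chr17:25366305-25369098. The other members lie at chr3:20215620-20242181 (Cpa3), chr1:173221284-173227214 (Fcer1a), chr1:171229572-171234365 (Fcer1g), chr19:11615523-11623719 (Ms4a2) and chr5:75574916-75656722 (Kit). In the GENCODE M21 transcripts, none of the 150-base windows of any member occurs in a transcript of another gene. At 50 bases, 5.48% of Mcpt4 windows were shared with Cma2 or Mcpt9, 5.38% of Cma1 windows with Gm48934 and 2.10% of Ms4a2 windows with Ms4a4b.

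In normal lungs, Rab44-KO was over 2-fold lower than WT for the FcεRI chains Fcer1a and Ms4a2, and for no other member. Of the 10 members, 7 had enough counts, 0 were over 2-fold higher and 2 were lower. Of all 18718 genes with enough counts, 2.77% were over 2-fold higher and 2% lower, with a median log2FC of 0.00 against -0.53 over the 7 members. The members' median rests on the minimum of 10 counts, and was 0.029 at a minimum of 1 count (9 members) and again at 50 (3 members). Most members have few counts, and of the 3875 genes whose higher library had 10 to 49 counts 8.98% were over 2-fold lower. Fcer1a had 1 count against 12, a ratio of 11.4-fold with an interval of 1.69 to 488. Ms4a2 had 9 counts against 23, a log2FC of -1.27 (-2.58 to -0.11). Summed, Fcer1a and Ms4a2 had 10 counts against 35, a log2FC of -1.72 (-2.91 to -0.69). Fcer1g, in contrast, had nearly equal levels, with a log2FC of 0.03 (-0.16 to 0.22). Cpa3 was lower in Rab44-KO by less than 2-fold, with a log2FC of -0.68 (-1.33 to -0.05). Cma1 was at -0.53 (-1.36 to 0.27) and Mcpt4 at 0.39 (-0.51 to 1.32), so for these chymases no difference was detectable at this depth. The 5 proteases summed to 118 counts in WT and 92 in Rab44-KO, a log2FC of -0.29 with an interval that includes 0 (-0.70 to 0.12). Kit was slightly higher in Rab44-KO, with a log2FC of 0.29 (0.23 to 0.34). Mesothelium genes, which mark the pleura, were higher in the same library, 3 of 6 over 2-fold with a median log2FC of 0.86. Airway cartilage genes were lower there, 41 counts summed over 9 genes against 67, with 3 tested, 1 of them over 2-fold lower, and a median of -0.56. The part of either tissue in these values was not tested.

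In OVA-induced lungs, 5 of the 8 members with enough counts were over 2-fold lower in Rab44-KO than in WT, namely Fcer1a, Fcer1g, Mcpt8, Tpsb2 and Cma1, and 0 were higher. Of all 19259 genes with enough counts, 7.34% were over 2-fold lower and 8.4% higher. The members' median log2FC was -1.39, beside -0.02 over all genes. The members' values depend on the minimum of 10 counts. At a minimum of 1 count (10 members), 5 were lower and 2 higher, Mcpt4 and Tpsab1, and the median was less negative. At a minimum of 50 (3 members), 1 was lower, 0 were higher and the median was -0.70. Among the 3879 genes with 10 to 49 counts, 16.0% were over 2-fold lower. Fcer1g had 571 counts against 1398, a log2FC of -1.30 (-1.44 to -1.16), and alone among the 5 had more than 50 counts. Its value was -0.97 on TPM and -0.83 once the trend of log2FC along gene length was removed, which are both short of 2-fold. Cma1 had 4 counts against 27, a log2FC of -2.73 (-4.74 to -1.24), and its interval lay wholly beyond 2-fold. Tpsb2 had 1 count against 10, a ratio of 10.1-fold with an interval of 1.43 to 437. Mcpt8 had 5 counts against 15, a log2FC of -1.57 (-3.41 to -0.06). Fcer1a had 5 against 14, a log2FC of -1.47 with an interval that just includes 0 (-3.32 to 0.06), and it came to -0.99 without the length trend.

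Cpa3 and Ms4a2 were lower in KO OVA lungs by less than 2-fold. Cpa3 had a log2FC of -0.70 (-1.13 to -0.29), close to its -0.68 in normal lungs, and was at -0.35 without the length trend. Ms4a2 was at -0.71 (-1.51 to 0.06). The housekeeping median of -0.75 in this comparison is as large as these values. Mcpt4 went the other way, with 8 counts in Rab44-KO and 1 in WT, a ratio of 7.95 with an interval of 1.07 to 353, and had too few counts to be read as over 2-fold. Kit was higher in Rab44-KO, at 4514 counts against 3068, a log2FC of 0.55 (0.48 to 0.61) that was 0.87 on TPM and 0.40 without the length trend. The 5 proteases summed to 93 counts in Rab44-KO and 166 in WT, a log2FC of -0.84 (-1.23 to -0.47). Cpa3 made up most of that sum, and the other 4 proteases had 14 counts against 38, a log2FC of -1.44 (-2.45 to -0.53). All 8 members without Kit and Fcer1g had 127 counts in Rab44-KO and 234 in WT, a log2FC of -0.89 (-1.21 to -0.57), and the same sum in normal lungs was 105 against 156, a log2FC of -0.50 (-0.87 to -0.13).

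**Figure D2:**
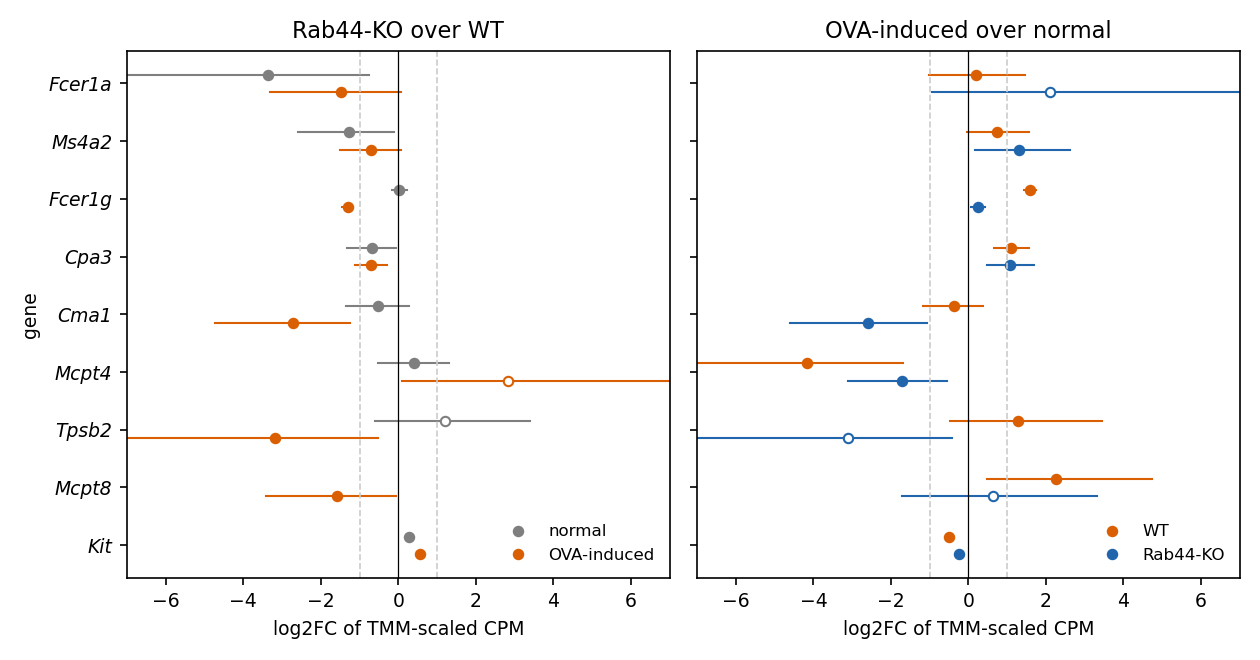
The log2FC of TMM-scaled CPM of each gene, Rab44-KO over WT in the left panel and OVA-induced over normal in the right panel. Bars are exact 95% counting intervals cut off at the edges, dashed lines mark 2-fold, open points have under 10 counts in the higher library, and Tpsab1 and pairs with at most 3 counts in each library are not drawn; in OVA-induced lungs Cma1 is at -2.73 and Fcer1g at -1.30, while Kit is at 0.55.

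OVA induction went with more Cpa3 in both genotypes and less Mcpt4 in both genotypes. These comparisons use the same OVA-induced libraries as the genotype comparison above, so their values are not separate evidence of it. In WT lungs, 9 members had enough counts, and 4 were over 2-fold higher (Fcer1g, Cpa3, Mcpt8 and Tpsb2) and 1 lower (Mcpt4). Of all 19023 genes with enough counts, 8.99% were higher and 5.2% lower, and the members' median log2FC was 0.75 against 0.00. Of those with 10 to 49 counts, 18.8% were higher and 16.4% lower. Fcer1g had a log2FC of 1.58 (1.43 to 1.73) and Cpa3 of 1.10 (0.65 to 1.58). On TPM the value of Cpa3 was 0.92, and without the length trend 0.98, both under 2-fold. Mcpt8 had 15 counts against 3, a ratio of 4.96 with an interval of 1.40 to 26.7. Tpsb2 had 10 against 4, with an interval that includes 0, and was at 0.98 on TPM. Mcpt4 had 1 count against 20, a ratio of 20.2-fold lower with an interval of 3.23 to 836. Kit was lower by 0.50 on the log2 scale, with a log2FC of -0.50 (-0.57 to -0.44), and Cma1, Fcer1a and Ms4a2 had intervals that include 0.

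In KO lungs, 6 members had enough counts, of which Ms4a2 and Cpa3 were over 2-fold higher with OVA and Mcpt4 and Cma1 lower. Of all 19073 genes with enough counts, 6.44% were higher and 3.85% lower, and 19.3% and 11.5% of those with 10 to 49 counts. The median log2FC was 0.00 over the members and -0.01 over all genes. Cpa3 had a log2FC of 1.08 (0.49 to 1.70) and Ms4a2 of 1.31 (0.16 to 2.61). Mcpt4 had 8 counts against 25, a log2FC of -1.72 (-3.10 to -0.55), and Cma1 had 4 against 23, a log2FC of -2.58 (-4.61 to -1.07). Fcer1g was at 0.25 (0.07 to 0.43) in KO lungs. The interval of Kit excluded 0 here too, at a log2FC of -0.24 (-0.30 to -0.18). All 6 heart muscle genes were over 2-fold lower with OVA in WT lungs (median log2FC -1.43) and 1 of 6 in KO lungs (median -0.25). Their part in the lower Mcpt4 was not tested.

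The mix of counts over these 5 protease genes therefore differed between normal and OVA-induced lungs in either genotype. Cpa3 took 50% of the protease counts in WT normal (40.7% to 59.3%, Clopper-Pearson), 38.0% in KO normal (28.1% to 48.8%), 77.1% in WT OVA (70.0% to 83.3%) and 84.9% in KO OVA lungs (76.0% to 91.5%). The intervals of Cpa3 in the normal and the OVA-induced libraries did not overlap. Mcpt8, the basophil protease, also had its most counts in WT OVA, and the part of basophils in the Cpa3 share was not tested. Mcpt4 took 16.9%, 27.2%, 0.602% and 8.60%, and Cma1 29.7%, 25%, 16.3% and 4.30%. The share of Cma1 in WT OVA, 11.0% to 22.8%, overlapped those in WT normal (21.6% to 38.8%) and KO normal (16.6% to 35.1%), and its level in WT lungs with OVA had an interval that includes 0, while Cpa3 was higher. Per length, Cpa3 was 1.97 times as high as Mcpt4 in WT normal, 0.936 times in KO normal, 85.6 times in WT OVA, where Mcpt4 had 1 count, and 6.60 times in KO OVA lungs.

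**Figure D3:**
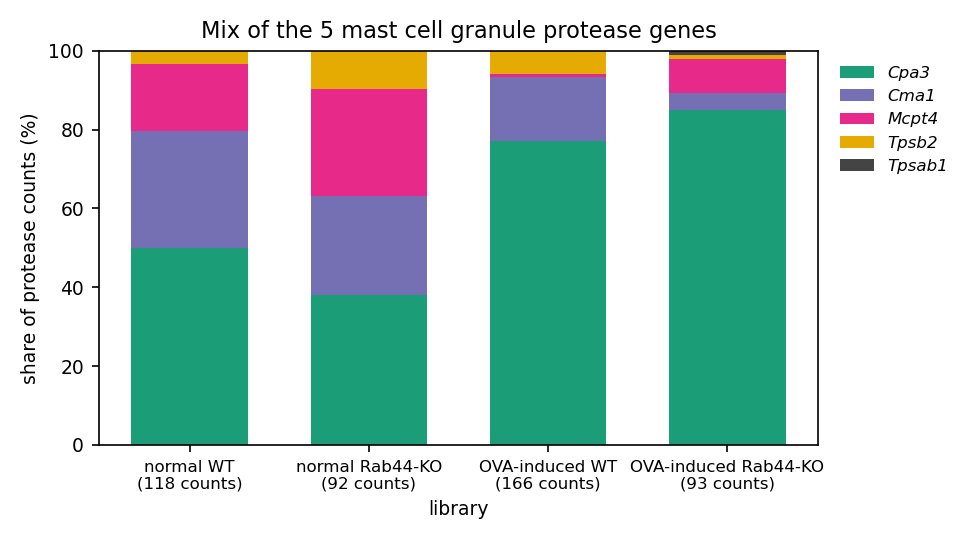
Share (%) of the counts of the 5 mast cell granule protease genes that fell on each gene, in each of the 4 libraries, with the summed counts under each bar. Cpa3 takes 38.0% to 50% in the normal libraries and 77.1% to 84.9% in the OVA-induced libraries.

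Whether the genotype ratio itself differed between conditions was read from the ratio of the ratios, with an exact conditional interval. For Fcer1g it was -1.33 on the log2 scale (-1.57 to -1.09), since the genotypes were level in normal lungs and apart in OVA-induced lungs. For Cma1 it was -2.21 (-4.36 to -0.44) and for Tpsb2 -4.34 (-10.2 to -0.89), which rests on 1 count in a library. For Kit it was 0.26 (0.17 to 0.35). The interval included 0 for Cpa3, at -0.03 (-0.79 to 0.75), and for Ms4a2, at 0.56 (-0.88 to 2.09), as it did for Fcer1a, Mcpt4 and Mcpt8. Of 5 sums, 3 had an interval that includes 0, at -0.56 (-1.12 to 0.0031) for the 5 proteases, -0.39 (-0.89 to 0.10) for the 8 members without Kit and Fcer1g and, in the other direction, 0.85 (-0.44 to 2.23) for Fcer1a with Ms4a2, so for these a change of the genotype ratio was not resolved at this depth. It excluded 0 for the 4 proteases without Cpa3, at -1.47 (-2.62 to -0.38), and for the 7 members without Kit, Fcer1g and Cpa3, at -0.75 (-1.46 to -0.06). Both of these sums leave out Cpa3, whose own value was -0.03. Their outcome depends on that choice and is not evidence apart from the single members. For Cpa3 the bounds of -0.79 to 0.75 leave room for a change of the genotype ratio of up to 0.79 on the log2 scale.

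Other mast cell proteases were nearly absent. Mcpt1, a protease of mucosal mast cells, had 0, 1, 5 and 0 counts in WT normal, KO normal, WT OVA and KO OVA lungs. Mcpt2, of the same cells, had 0, 0, 6 and 1. Prss34, a protease of basophils and mucosal mast cells, had 0, 3, 6 and 2. WT OVA was the highest library for each, at no more than 6 counts, and Mcpt9 and Cma2 had 0 in every library. Gzmb was the only one of the 8 genes measured with at least 10 counts, and NK cells and cytotoxic T cells make it too. Among 15 other mast cell genes, 12 had enough counts in OVA-induced lungs, and 4 were over 2-fold lower in Rab44-KO and 1 higher (median log2FC -0.37), against 7.34% and 8.4% of all genes and 16.0% lower among those with 10 to 49 counts. Il1rl1, the IL-33 receptor, was at -1.03, and Hpgds, which makes prostaglandin D2, at -1.34. Cd63, a granule membrane protein found in many cells, was at -1.26. Gata2, a transcription factor of mast cells, basophils and endothelium, was higher, at 1.18. Hdc, which makes histamine, had 985, 808, 2388 and 1847 counts, far more than the proteases, and is known from neutrophils as well. Of 13 basophil genes, 3 of them members of the present set, 12 had enough counts in OVA-induced lungs, and 4 were lower and 1, again Gata2, higher (median -0.61). Cd200r4, an activating receptor of basophils and other myeloid cells, was at -1.88, whereas the integrins Itga2 and Itga2b, which platelets and their precursors also carry, were at 0.80 and 0.87. Of the 4 lower basophil genes, Mcpt8 and Fcer1a are members described above. Of 9 genes that the deposited annotation ties to basophils, 7 had enough counts, and 1 was lower and 1 higher (median 0.36). Cd200r3, a related basophil receptor named after its values were seen, had 8, 4, 12 and 19 counts, a log2FC of 0.65 (-0.46 to 1.83) for KO OVA over WT OVA.

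The deposited annotation names mast cells for 117 genes, 4 of them members and 1 of them Rab44 itself. Without these 5, 99 had enough counts, of which 18 were over 2-fold lower in KO OVA than in WT OVA lungs and 2 higher (median log2FC -0.21), against 7.34% and 8.4% of all genes. Among them Ccl11, which attracts eosinophils, was at -3.14 and its receptor gene Ccr3 at -2.39.

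The IgE transcript and the cytokines that induce IgE were lower with Rab44-KO in OVA-induced lungs. Ighe, the IgE heavy chain, had 4 counts in WT normal, 0 in KO normal, 96 in WT OVA and 13 in KO OVA. This was a log2FC of -2.88 between the OVA-induced genotypes. Il4, which switches B cells to IgE, had 6, 7, 17 and 6 counts, a log2FC of -1.49. Il13 had 1, 0, 13 and 0 counts. With the 0 of KO OVA set at the floor of 3 counts, Il13 was 4.36-fold lower there than in WT OVA lungs. The exact interval of its ratio allows a smaller difference and ends at a log2FC of -1.62. Of the 7 genes of that list with enough counts, 4 were over 2-fold lower (median -1.49), Il4 being also 1 of the 4 lower basophil genes. Fcer2a, the low-affinity IgE receptor of B cells, was at -0.88. Il4ra and Stat6 of the same list were not lower. Il4ra was at 0.44, with 3532 counts in KO OVA and 2581 in WT OVA, and Stat6 was at 0.02. Ighe, Il4 and Il13 were named after their values were seen. Among 22 genes of FcεRI signalling, 2 were over 2-fold lower in KO OVA than in WT OVA lungs and 0 higher (median -0.44), which is a share near the 7.34% of all genes. Those were the adaptors Lat (-1.02) and Lat2 (-1.35), which gather signalling proteins under the receptor, and the kinase Btk was at -0.96. With OVA, 10 of the 22 were over 2-fold higher in WT lungs, where 8.99% of all genes were, and 2 in KO lungs, near the 6.44% of all genes there, and T cells, B cells and macrophages use these genes as well. Of the ligands that sustain or activate mast cells, none of 5 tested was over 2-fold different between genotypes in OVA-induced lungs. Kitl, the ligand of Kit, had 6565, 6086, 3636 and 4445 counts and Il33, an alarmin of epithelium and endothelium, 1302, 1441, 3834 and 2198. Il3 and Il9, growth factors of mast cells, had 0 counts in every library, where the exact interval of a 0 reached at most 0.202 CPM.

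Of 12 receptors known to pair with the γ chain that had enough counts, 3 were over 2-fold lower in KO OVA than in WT OVA lungs and 1 higher (median -0.55), against 7.34% and 8.4% of all genes. Fcer1a, a member described above, is 1 of the 3. Fcgr3, an IgG receptor of myeloid and NK cells, was at -1.24 and Clec4n, a myeloid lectin receptor, at -1.11, while Gp6, the collagen receptor of platelets, was at 1.36. Trem1, Pirb and Fcamr were left out of this list after its values were seen, since Trem1 signals through Tyrobp, Pirb is inhibitory and the pairing of Fcamr was not certain. With them the count was 3 lower and 2 higher of 15 (median -0.25). Of 4 other genes, 3 were over 2-fold lower. These were the ITAM adaptor Tyrobp at -1.31, Hcst, an adaptor without an ITAM, at -1.38 and Fcgr2b, the inhibitory IgG receptor, at -1.39. Markers of macrophages and monocytes moved alongside Fcer1g, with 6 of 10 over 2-fold lower (median -1.04). Their summed level was 5305 CPM in WT normal, 5887 in KO normal, 10709 in WT OVA and 5210 in KO OVA lungs, with no marker at 0. Lyz2 took 91.8% to 93.7% of that sum, and the markers without it came to 365, 373, 842 and 426 CPM. Eosinophil markers had a median of -1.23 and NK cell markers of -0.92, whereas neutrophil markers were at 0.57, with 2 of 8 over 2-fold higher. The part of these cells in the Fcer1g difference was not tested. The 12 genes of lung endothelium summed to 5244 CPM in WT normal, 5208 in KO normal, 3706 in WT OVA and 5400 in KO OVA lungs, none at 0. WT OVA was the lowest library both for that sum and for Kit. The endothelial median of KO OVA over WT OVA was 0.21 (genes from -0.70 to 1.55, 2 of 12 over 2-fold higher), beside 0.55 for Kit. With OVA in WT lungs the median was -0.50, as was Kit. In normal lungs Kit was slightly higher in Rab44-KO while the sum was nearly level, and with OVA in KO lungs Kit was lower and the endothelial median was -0.11. The sum was higher there through Ptprb, and without it was 4297, 4188, 3266 and 4109 CPM. The 8 genes of ILC2 and blood progenitors had a median of -0.38 for KO OVA over WT OVA, 3 of 8 over 2-fold lower, and summed to 373, 378, 337 and 338 CPM. The part of endothelium and progenitors in the Kit values was not tested.

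**Figure D4:**
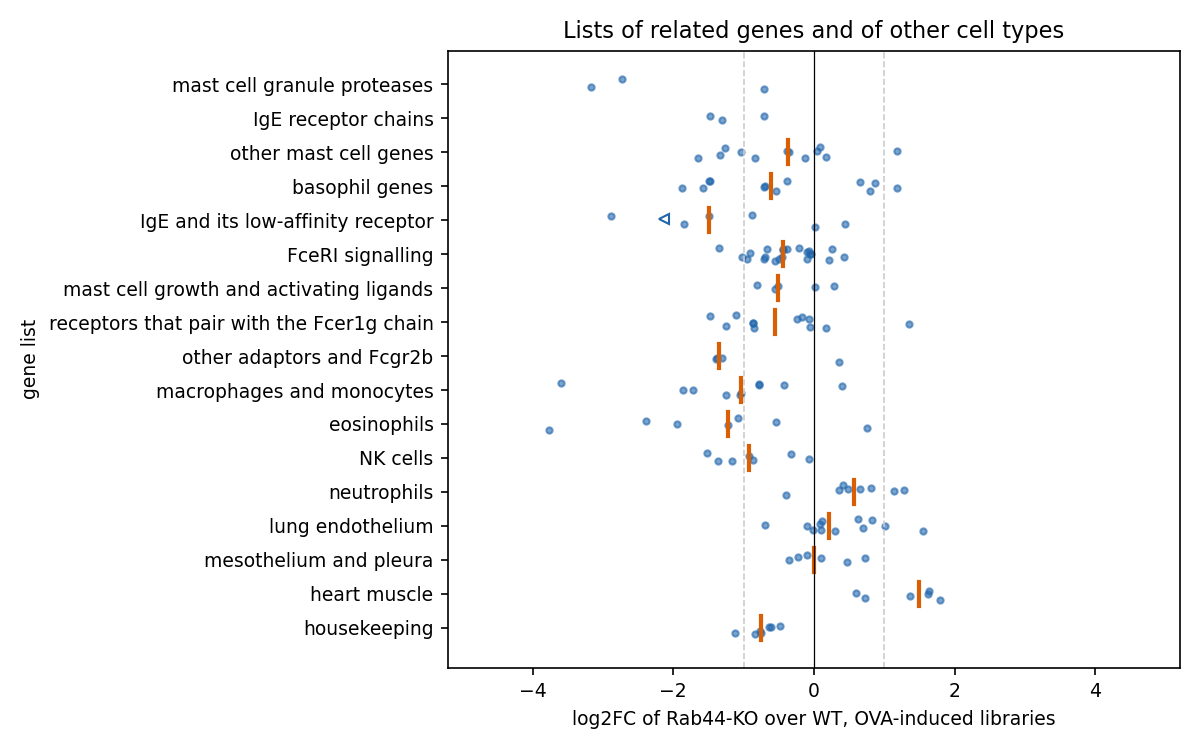
The log2FC of Rab44-KO over WT in OVA-induced lungs for genes that reached 10 counts in a library, by list. Points are genes, orange bars are medians of lists with at least 4 genes drawn, dashed lines mark 2-fold, and the open triangle is a bound for Il13, which had 0 counts in Rab44-KO; the medians drawn run from -1.49 for IgE and its low-affinity receptor to 1.49 for heart muscle, and Mcpt4 is not drawn because it had under 10 counts.

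The genes with the nearest profile over the 4 libraries were found for Fcer1g, Kit and the summed proteases. Nearness was the root mean square distance of centred log2 CPM over 4 libraries, among 13898 genes that reached 100 counts in a library. For Fcer1g the nearest were Clec4a2 (0.0545), Cd52 (0.0566) and Tyrobp (0.0567), all genes of leukocytes. For Kit they were Reps2 (0.0193), Shank2 (0.0211) and the circadian gene Per1 (0.0234). For the summed proteases they were Kif15 (0.00961), a mitotic kinesin, Rplp2 (0.0218), a ribosomal protein, and Trim59 (0.0219). The counting intervals of Fcer1g, of Kit and of that sum are wider on the log2 scale than these distances. The order of the genes is therefore not resolved for any of these profiles. Mcpt8, with 3 counts in each normal library, has too few counts for such a ranking. A distance over 4 libraries is a description of these libraries.

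Promoter windows of RefSeq genes on GRCm38.p6 ran from 250 bases before to 50 after the start. They were at hand for 8 members, and not for Tpsb2 and Tpsab1. GATA factors are known to drive genes of mast cells and basophils, so AGATAA and TGATAA were searched on both strands. The letters occurred in 4 of 8 members, Fcer1a, Ms4a2, Cpa3 and Mcpt4, and in 18.6% of all 32851 windows of this length. They were not found in the windows of Fcer1g, Mcpt8, Cma1 and Kit. The windows with a match are printed with the match in capitals, in the direction of the gene, where TTATCT is AGATAA on the opposite strand. They lie on the minus strand, at chr1:173227180-173227479 for Fcer1a, chr19:11623670-11623969 for Ms4a2, chr3:20242132-20242431 for Cpa3 and chr14:56062261-56062560 for Mcpt4.
Fcer1a: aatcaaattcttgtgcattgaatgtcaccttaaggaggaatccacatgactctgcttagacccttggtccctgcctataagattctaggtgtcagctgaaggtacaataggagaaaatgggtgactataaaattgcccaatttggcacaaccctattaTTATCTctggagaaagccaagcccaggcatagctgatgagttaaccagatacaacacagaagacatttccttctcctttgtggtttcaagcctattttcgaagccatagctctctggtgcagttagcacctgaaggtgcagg
Ms4a2: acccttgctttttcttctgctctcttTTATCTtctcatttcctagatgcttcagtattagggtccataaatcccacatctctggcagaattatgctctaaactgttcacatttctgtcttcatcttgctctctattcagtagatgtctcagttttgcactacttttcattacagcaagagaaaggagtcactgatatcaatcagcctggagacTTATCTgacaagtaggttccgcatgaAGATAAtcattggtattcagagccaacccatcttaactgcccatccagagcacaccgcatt
Cpa3: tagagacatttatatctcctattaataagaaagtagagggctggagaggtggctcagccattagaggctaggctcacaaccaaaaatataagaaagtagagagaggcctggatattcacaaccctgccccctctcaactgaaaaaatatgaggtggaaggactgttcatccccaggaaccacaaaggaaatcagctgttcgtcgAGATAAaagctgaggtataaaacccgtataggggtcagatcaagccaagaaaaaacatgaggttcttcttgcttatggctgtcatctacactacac
Mcpt4: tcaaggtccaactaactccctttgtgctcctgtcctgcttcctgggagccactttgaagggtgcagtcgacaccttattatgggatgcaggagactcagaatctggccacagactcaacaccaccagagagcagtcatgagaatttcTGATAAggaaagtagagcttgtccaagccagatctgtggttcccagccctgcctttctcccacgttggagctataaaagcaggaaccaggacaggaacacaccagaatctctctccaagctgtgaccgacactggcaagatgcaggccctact
Ms4a2 holds 3 matches and the others 1 each. Other letters searched were the E-box CAGCTG, in 3 of 8 members and 16.3% of all windows, and CACGTG or CATGTG, which the mast cell factor Mitf can bind, in 1 of 8 and 20.4%. Of the 4 genes printed, Fcer1a, Ms4a2 and Cpa3 had a negative log2FC of Rab44-KO over WT in normal and in OVA-induced lungs, and Mcpt4 did not. Cma1 had a negative log2FC in both conditions without the letters in its window. A match is a description of the sequence and was not tested as a binding site.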

How the data were processed

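Lung RNA from 4 libraries was analysed, 1 per group, grouped by their labels. The authors sequenced 150-bp paired-end reads from directional libraries, aligned the trimmed reads to GRCm38 (HISAT2) and deposited raw counts per gene from featureCounts; strand and multi-mapping settings are not given in the sources used here. The authors also deposited TPM, used to compare levels between genes. The table's gene starts differ from GRCm38 annotation for all members, so positions are from GENCODE M21.

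Counts were scaled by TMM (edgeR 4.0.16, R 4.3.3; factors 0.973 to 1.02). The log2FC used a prior count of 0.125. Ratio intervals are Clopper-Pearson and CPM intervals Poisson, computed with scipy 1.17.1, and a fold against a 0 uses a floor of 3 counts. No p-value was computed. Steps were tested on simulated counts, and all 200 changed genes were recovered in each comparison, while 1.42% to 2.02% of unchanged genes passed 2-fold. The changed genes had at least 100 expected counts and changes well past 2-fold, so their recovery does not cover members with few counts.

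Members and gene lists were chosen with earlier results of these data known. All members are named, and in each other list up to 4 genes with the largest absolute log2FC of Rab44-KO over WT in OVA-induced lungs and at least 100 counts (up to 5 for annotated genes), and the 3 genes nearest to each profile. Genes named otherwise were chosen after their values were seen. Alternatives were DESeq2 1.42.0 size factors, total counts, TMM on the compared libraries or without immunoglobulin genes, a prior count of 2, TPM with a pseudocount of 0.1, thinning to the smallest library, minimums of 1 and 50 counts, 1.5-fold, intervals wholly beyond 2-fold, and leaving out Fcer1g with Kit or the tryptases. Removal of the running median of log2FC along gene length, over 501 genes, was added after seeing the data.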

Additional observations from a re-analysis of the deposited data

How the results depend on the processing

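Of 240 values of single members under another setting, 232 moved by less than their counting interval, 8 moved by more and 0 changed sign; of 160 counts and medians over members, 137 stayed within tolerance (1.5 times for a count, and for a median the same sign and the counting interval of its middle members) and 23 moved. Within that tolerance, members lower in KO OVA than in WT OVA lungs numbered 5 as reported, 4 on TPM, 4 after thinning and 7 at 1.5-fold, and the median went from -1.39 to -0.91 without the length trend and to -0.70 at a count minimum of 50. For Rab44-KO over WT in normal lungs the median turned from -0.53 to 0.029 at a count minimum of 1 and also at 50. A count minimum of 1 gave, for Rab44-KO over WT, 1 member past 2-fold upwards in normal and 2 in OVA-induced lungs, and 4 higher with OVA in KO lungs, with a median of 0.43. A count minimum of 50 left 0 lower in normal and 1 lower in OVA-induced lungs for Rab44-KO over WT, 2 higher and 0 lower for OVA-induced over normal in WT, and 1 higher and 0 lower for OVA-induced over normal in Rab44-KO, with a median of 0.25. Intervals wholly beyond 2-fold left 0 lower in normal and 2 lower in OVA-induced lungs for Rab44-KO over WT, 1 higher for OVA-induced over normal in WT, and 0 higher and 1 lower for OVA-induced over normal in Rab44-KO. These losses follow from fewer members tested or a stricter call. Without the length trend, 3 members were lower in KO OVA than in WT OVA lungs. On TPM, and also after thinning, 2 were higher with OVA in WT lungs. The median of OVA-induced over normal in Rab44-KO was 0.13 on TPM and -0.32 without Fcer1g and Kit. For these the cause was not tested. No paired analysis was possible because each group has 1 library, and depth limits 8 of the 10 members, which have at most 128 counts in any library.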
